A study of Mus musculus with 16 samples.

Results

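The nuclei described here are interneurons of the mouse hippocampus that carried transcripts of Lhx6 and little or no transcript of somatostatin. A nucleus was counted when it had between 1000 and 7000 genes and at most 5% mitochondrial UMIs, at least 2 UMIs of Gad1 and Gad2 together, at least 1 UMI of Lhx6 and at most 1 UMI of Sst, and no UMI of Slc17a7, Mog, Pdgfra, Csf1r or Vip. A UMI is a molecular tag that marks 1 captured transcript. The rule took 1471 of the 155084 barcodes in 16 libraries, between 62 and 126 a library, and 129802 barcodes met the limits on genes and mitochondrial UMIs. The nuclei were thus chosen by the measured UMIs of these 9 genes, so their levels are given as a description and never as a result.

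The study asked how the type I interferon response that follows activation of STING acts on brain cells, and whether it needs the interferon receptor. Single-nucleus libraries came from hippocampi of male mice in 4 groups of 4. C57BL/6 mice (WT) aged 2 months and 23 days received vehicle (WT vehicle) or DMXAA, an agonist of mouse STING (WT DMXAA). Ifnar1-/- mice (KO), which lack a subunit of the type I interferon receptor, were 3 months and 3 days old and received vehicle (KO vehicle) or DMXAA (KO DMXAA). Genotype thus coincided with age and with the order in which the libraries were deposited, and their parts cannot be told apart. The labels give each library as a sample of its own and do not say more about its origin, so p-values measure the spread between these libraries.

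Lhx6 is a transcription factor kept by interneurons born in the medial ganglionic eminence. In the hippocampus these cells include parvalbumin basket cells, which inhibit the bodies of pyramidal cells and fire fast, axo-axonic cells, which contact the start of the axon, ivy cells and a share of neurogliaform cells, which release GABA and nitric oxide widely, and somatostatin cells, which inhibit distal dendrites. Type I interferons bind IFNAR1 and IFNAR2, and the signal reaches the nucleus to switch on interferon-stimulated genes.

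The libraries held a median of 9764 to 18379 UMIs and 3422 to 4287 genes per chosen nucleus, and 665693 to 1993062 UMIs over all chosen nuclei of a library. Of the 1471 nuclei, 672 had more than 4000 genes, the upper limit that the study itself used, and 40 were called doublets. Over all barcodes, 3033 sequences occurred in more than 1 library, 59 of the chosen nuclei shared their sequence with a barcode of another library, and 0 sequences were a chosen nucleus in more than 1. The library WT DMXAA 3 stood apart from its group. On the first axis of a multidimensional scaling of the summed counts, which held 39.7% of the variance, it lay at 0.946, among the KO libraries at 0.11 to 1.31, while the other WT libraries lay between -1.06 and -0.54. Of 2241 genes that were called between the vehicle groups and whose libraries did not overlap, 86.7% had a level in WT DMXAA 3 nearer to the mean of KO vehicle than to that of WT vehicle, against 5.58% to 12.3% in the other WT DMXAA libraries and 54.5% to 87.2% in KO DMXAA. Whether its label is right could not be checked here, so it is named as labelled, and the WT DMXAA means, SDs and contrasts hold it unless stated. Counts of calls, shares of nuclei and medians over lists in WT are therefore given with and without it. The transcript of Ifnar1 could not check the genotype, since tags at its 3′ end need not lie in the deleted part. It was at 11.8 to 15.95 CPM in WT vehicle and 8.07 to 12.6 CPM in KO vehicle (log2 difference -0.44 ± 0.30 SE, edgeR adjusted p = 0.277). CPM, the usual unit of counts scaled to depth, were taken over the summed UMIs of the chosen nuclei of a library. In the comparisons of groups the levels of single genes are CPM normalised with the TMM factors of the fit, while class levels, marker levels and sums over lists are plain CPM.

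Of the nuclei, 1297 had 0 UMIs of Sst and 174 had 1, and just outside the limit 128 had 2 UMIs, 99 had 3 and 158 had 10 or more. Lhx6 stood at 1 UMI in 858 nuclei, at 2 in 391 and at 3 in 127, and 4308 nuclei met every other condition with 0 UMIs of Lhx6. Gad1 and Gad2 together stood at 2 UMIs in 124 nuclei, and 86 with a single UMI were left out. The excluding genes left 1471 of 1924 nuclei. Of those removed 318 had Slc17a7, in 209 of them at exactly 1 UMI.

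The marker genes outside the rule were those of interneurons, but were not particular to the chosen nuclei. Nxph1, which encodes a ligand of α-neurexins, had a UMI in 99.5% of the nuclei, and Btbd11, an ankyrin-repeat and BTB-domain protein of interneurons, in 83.1%. After each nucleus was thinned to 2000 UMIs the shares were 97.9% and 56.8%. The 24201 excitatory nuclei had at least 3 UMIs of Slc17a7, no UMI of Gad1 or Gad2, and a median depth of 14939 UMIs against 13274. They did not have to lack Mog, Pdgfra, Csf1r or Vip. In them the shares were 7.45% and 2.96% unthinned and 1.92% and 0.587% thinned. Since nuclei with Gad1 or Gad2 were left out, these shares may lie below what free RNA of interneurons gives. In somatostatin interneurons, described below, the unthinned shares were 100% and 63.1%, and in Adarb2 interneurons 47.7% and 69.0%. Adarb2, the marker of interneurons from the caudal ganglionic eminence, had a UMI in 32.6% of the chosen nuclei, in 31.5% of excitatory nuclei and in 15.3% of somatostatin interneurons. Its level was 389 CPM in the chosen nuclei, 227 CPM in excitatory nuclei and 29.1 CPM in somatostatin interneurons, and among the chosen nuclei it was highest in the ivy/neurogliaform-like class described below, at 1716 ± 787 CPM against 16.4 ± 13.9 CPM in parvalbumin basket-like nuclei (SD, n = 16). Defining markers of other cells were near 0 by level, with Aqp4 at 1.79 CPM, Olig1 at 0.835 CPM, Flt1 at 0.355 CPM and Neurod6 at 2.11 CPM as means over the 16 libraries. P2ry12, a microglial receptor, stood at 24.4 CPM against 31.3 CPM in excitatory nuclei.

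Clustering of the nuclei without the 9 rule genes, the interferon-stimulated genes and the nuclear noncoding RNAs gave 11 clusters, which markers listed for each cell type grouped into 4 classes and a rest. The largest class, parvalbumin basket-like, had 667 nuclei in 4 clusters, which is 45.3% (95% Wilson interval 42.8% to 47.9%). Ivy/neurogliaform-like nuclei numbered 338 (22.98%), somatostatin-like nuclei 120 (8.16%) and axo-axonic-like nuclei 65 (4.42%), and 281 nuclei (19.1%) in 3 clusters stayed unnamed. The intervals cover counting error only. Other settings of the clustering gave 573 to 635 parvalbumin basket-like, 333 to 364 ivy/neurogliaform-like and 63 to 66 axo-axonic-like nuclei, but somatostatin-like nuclei ranged from none named to 356, so that class was the least stable. The genes below helped define the clusters and are described without a test.

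In parvalbumin basket-like nuclei Pvalb, a calcium buffer, was at 56.1 ± 21.8 CPM (SD over the 16 libraries with 5 or more such nuclei) and had a UMI in 43.6% of these nuclei, against 2.10 ± 4.42 CPM in somatostatin-like nuclei. Syt2, the fast calcium sensor of their terminals, was at 157 ± 34.7 CPM and Tac1, the substance P precursor, at 43.7 ± 21.3 CPM. Kcnc2, a Kv3 potassium channel that shortens the action potential, reached 4582 ± 804 CPM, against 638 ± 154 CPM in ivy/neurogliaform-like nuclei. Btbd11 was at 1185 ± 288 CPM in them and at 84.2 ± 43.0 to 222 ± 99.8 CPM in the 3 other named classes. Acan, the aggrecan core of perineuronal nets, was at 18.3 ± 7.46 CPM here and at 3.276 ± 4.605 CPM or less in the other named classes.

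The class was not 1 population across libraries. The second largest of its clusters held 203 nuclei, of which 97 came from WT vehicle, 87 from WT DMXAA, 1 from KO vehicle and 18 from KO DMXAA, with 0 from WT DMXAA 3. Predicted and noncoding transcripts such as 4930470O06Rik, Tmem132cos and 4930445B16Rik led that cluster. The share of this cluster among the chosen nuclei was 29.2 ± 8.77% in WT vehicle and 0.245 ± 0.490% in KO vehicle (SD, n = 4, exact permutation p = 0.0286, the smallest the design allows, adjusted p = 0.189). The clusters that held most of the class in KO libraries were led by 6330411D24Rik and Npnt, and by Gsg1l and Dnah5. Since noncoding transcripts differed between the genotypes as well, the sizes of the clusters of this class are not compared further between genotypes.

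Axo-axonic-like nuclei had Unc5b, a netrin receptor, at 227 ± 92.9 CPM (SD, 5 libraries) and Cntnap5a, a contactin-associated adhesion protein, at 3302 ± 1121 CPM. Pvalb was at 35.7 ± 30.5 CPM, below its level in basket-like nuclei by less than the spread, whereas Syt2 was at 5.61 ± 8.27 CPM. Mef2c, a transcription factor of this lineage, had its highest mean among the classes here, 1755 ± 312 CPM.

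Ivy/neurogliaform-like nuclei carried Lamp5, a synaptic membrane protein of neurogliaform-type cells, at 135 ± 32.1 CPM, Nos1, the neuronal nitric oxide synthase, at 196 ± 44.1 CPM, and Sv2c, a vesicle protein, at 159 ± 88.6 CPM (SD, n = 16). Of the other 3 markers listed for the class, Id2 was at 72.6 ± 40.1 CPM, while Ndnf and Kit were near 0, at 8.71 ± 11.1 and 11.3 ± 13.4 CPM. They had the matrix genes Hapln1 at 236 ± 56.5 CPM and Vcan at 337 ± 105 CPM, while both were below 20 CPM in the 3 other named classes. Their receptors differed from those of basket-like nuclei, with the NMDA receptor subunit Grin2a at 4478 ± 1017 against 421 ± 168 CPM and the AMPA receptor subunit Gria3 at 134 ± 51.7 against 1093 ± 131 CPM. Gabra5, a subunit of extrasynaptic GABA-A receptors, was at 107 ± 21.4 against 22.3 ± 10.3 CPM. Sox6 and Satb1, transcription factors of the medial ganglionic lineage, were at 39.2 ± 27.2 and 2.02 ± 3.67 CPM, against 877 ± 118 and 339 ± 31.8 CPM in basket-like nuclei.

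Somatostatin-like nuclei had at most 1 UMI of Sst by the rule, yet Elfn1, a postsynaptic protein at inputs to somatostatin cells, was at 293 ± 82.7 CPM and Grin3a, an NMDA receptor subunit, at 942 ± 308 CPM (SD, 10 libraries). In its 2 clusters 54.7% and 53.6% of nuclei had 0 UMIs of Sst, against 97.6% in the ivy/neurogliaform-like cluster. Erbb4, the neuregulin receptor, was at 2039.8 ± 1579.9 CPM in somatostatin-like nuclei and at 13369.6 ± 1883 CPM in basket-like nuclei.

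**Figure D1:**
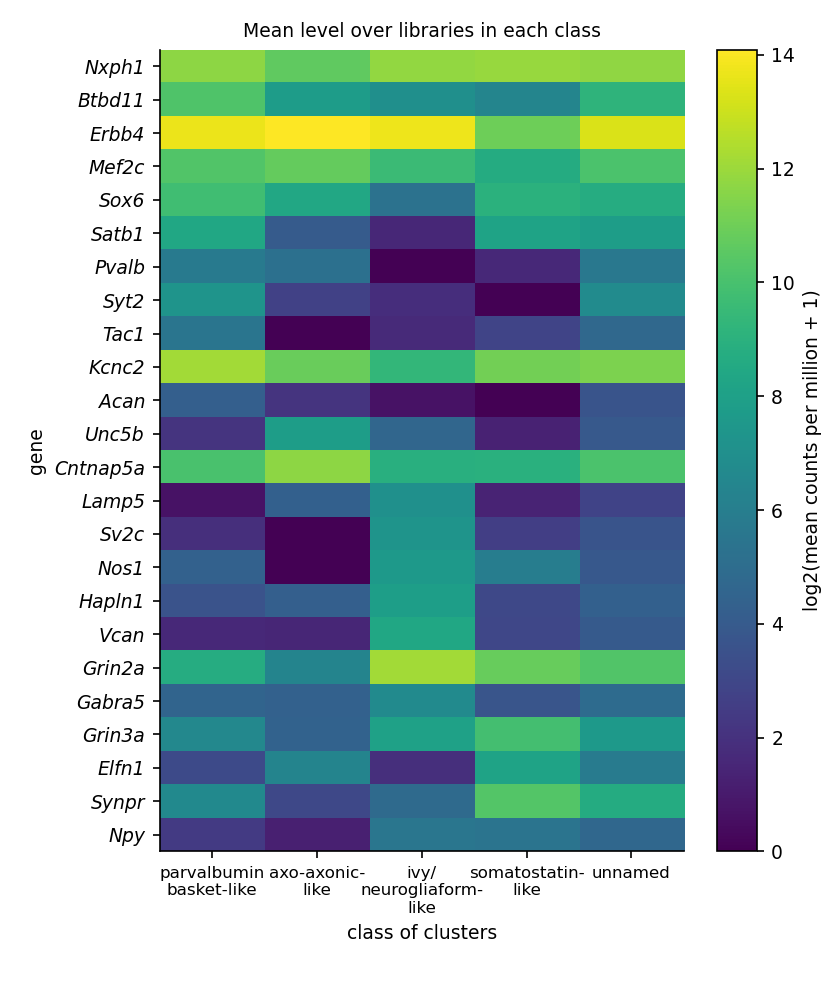
Mean level of 24 genes in each class, as log2(mean CPM + 1) over the libraries with 5 or more nuclei of the class (colour), with genes as rows and classes as columns. Pvalb, Syt2 and Tac1 are highest in the parvalbumin basket-like column, Unc5b in the axo-axonic-like, Lamp5, Sv2c, Nos1, Hapln1 and Vcan in the ivy/neurogliaform-like, and Elfn1 and Synpr in the somatostatin-like column.

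One unnamed cluster of 129 nuclei was led by Gpc5, Slc1a2, Rorb, Slc1a3 and Zfhx3, genes that astrocytes or other neurons also use, and held 34 of the 40 doublet calls. Another of 119 nuclei was led by Foxp2 and Gfra1, and the last, of 33 nuclei, by Il1rapl2 and Pde3a with Npy among its leading genes. Results that rest on genes of the doublet-rich cluster are given without it.

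The chosen nuclei made up 0.755%, 0.928%, 0.94005% and 0.962% of the barcodes within the limits in the 4 WT vehicle libraries. WT DMXAA libraries held 0.903%, 0.967%, 1.05% and 1.27%, the last being WT DMXAA 3. KO vehicle libraries held 1.24% to 1.59% and KO DMXAA libraries 0.894% to 1.55%. The WT DMXAA and WT vehicle means, 1.05 ± 0.162% and 0.896 ± 0.0952% (SD, n = 4), differed by less than the test could call (two-sided exact permutation p = 0.171, adjusted over 3 contrasts 0.257). Without WT DMXAA 3 the difference fell from 0.152 to 0.0762 points (exact permutation p = 0.371). Without WT DMXAA 2, but with WT DMXAA 3, the groups no longer overlapped and the difference was 0.200 points. The exact permutation p was then 0.0286, the smallest that 3 against 4 allows. Adjusted over the 3 contrasts it was 0.0429, with p of the other contrasts taken from all libraries. That value rested on KO vehicle against WT vehicle, whose exact permutation p was 0.0286 as well. KO DMXAA and KO vehicle means were 1.28 ± 0.289% and 1.36 ± 0.162% (exact permutation p = 0.686), and the sign of their difference turned without KO vehicle 1 or KO DMXAA 4, to 0.00393 and 0.0532 points. KO vehicle lay above WT vehicle in every library, by 0.460 points (exact permutation p = 0.0286, the smallest that 4 against 4 allows, adjusted p = 0.0857). Median depth per chosen nucleus was 9878 to 11678 UMIs in WT vehicle and 14087 to 18379 UMIs in KO vehicle. When every barcode was thinned to 2000 UMIs before the rule was applied, the shares were 0.125 ± 0.0531% in WT vehicle and 0.153 ± 0.0475% in KO vehicle and the groups overlapped (exact permutation p = 0.457). The thinned share in WT DMXAA was 0.192 ± 0.0860% and overlapped that of WT vehicle as well (exact permutation p = 0.229). Thinning left 5 to 16 nuclei a library in WT vehicle, 6 to 21 in WT DMXAA and 6 to 15 in KO vehicle. With so few nuclei these tests could not tell whether the shares differed, and the part of depth was not tested further.

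**Figure D2:**
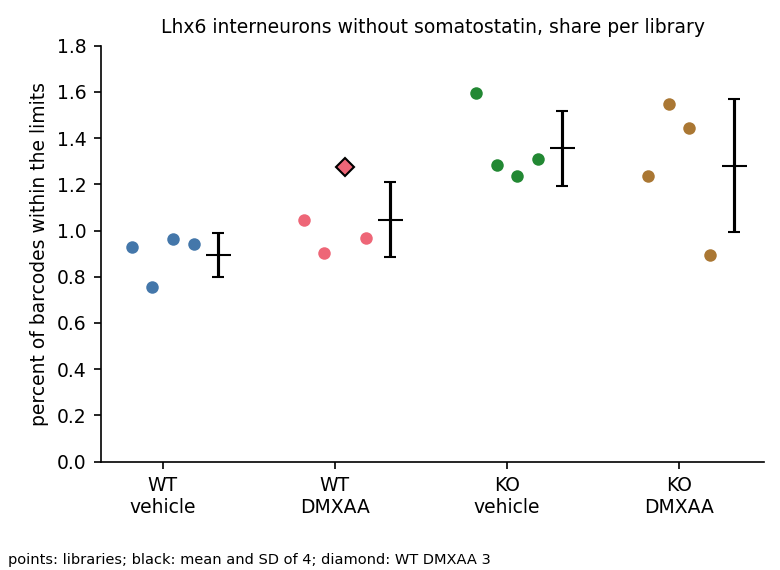
Chosen nuclei as a percent of barcodes within the limits on genes and mitochondrial UMIs (y axis) in each of the 16 libraries (points), by group, with the mean and SD of 4 libraries in black and WT DMXAA 3 as a diamond. All 4 KO vehicle points lie above all 4 WT vehicle points, and the DMXAA groups overlap their vehicle groups.

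The shares of the 2 largest classes differed between DMXAA and vehicle by less than the larger SD of the groups compared. Parvalbumin basket-like nuclei were 47.3 ± 16.3% of the chosen nuclei in WT vehicle and 39.6 ± 8.70% in WT DMXAA, and 47.7 ± 2.71% in KO vehicle and 44.5 ± 10.7% in KO DMXAA. Ivy/neurogliaform-like nuclei were 26.5 ± 9.51% and 24.9 ± 6.37% in WT, and 19.5 ± 6.09% and 23.7 ± 7.91% in KO (SD, n = 4). Without WT DMXAA 3 the WT DMXAA means were 41.9% and 26.0%. With 4 libraries a group the smallest exact permutation p is 0.0286, so no single class could pass after adjustment over classes and contrasts, and the tests say nothing of whether the shares differed.

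The next comparison set the chosen nuclei against the 661 somatostatin interneurons of the same libraries, which met the same rule with 2 or more UMIs of Sst. Counts of both sets were summed per library and paired in 1 edgeR fit, and a gene was called at adjusted p under 0.05 and a log2 difference over 0.1 in size. Of 8344 genes tested, 32.2% were called, 1361 higher (16.3%) and 1324 lower (15.9%) in the chosen nuclei, while 5.32% were higher and 3.95% lower in 16 of 16 libraries. Levels in this and the next comparison are normalised CPM as mean ± SD over 16 libraries. Because the 2 sets differ in cell types by choice of Sst, genes that go with Sst had to differ, and the values describe by how much.

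Parvalbumin basket markers were 4 of 4 tested genes higher, with a median log2 difference of 2.18 against -0.00 over all genes, and the somatostatin markers outside the rule were 4 of 4 lower, with a median of -2.02. Syt2 was at 103 ± 20.4 CPM in the chosen nuclei and 6.37 ± 5.69 CPM in somatostatin interneurons (log2 difference 3.90 ± 0.19 SE, edgeR adjusted p = 4.13e-16), and Pvalb at 39.6 ± 16.05 and 4.67 ± 4.25 CPM (3.01 ± 0.20, adjusted p = 4.87e-13). Btbd11 was higher in 16 of 16 libraries, at 748 ± 214 and 200.4 ± 55.4 CPM. Nxph1 was at 3470.2 ± 872 and 3786 ± 853 CPM (-0.13 ± 0.05, adjusted p = 0.0347), and that call was lost in 8 of 16 fits that left out 1 library, with an adjusted p of up to 0.0808 without WT DMXAA 4.

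Ion channels of fast-spiking cells were mostly higher. Of 19 tested, 14 were higher and 3 lower, with a median log2 difference of 0.61. The Kv3 subunit Kcnc1 stood at 366 ± 77.5 against 158 ± 37.2 CPM (1.20 ± 0.06), the Kv1 subunit Kcna1 at 108 ± 26.1 against 42.1 ± 18.2 CPM (1.39 ± 0.10), and the ERG channel Kcnh7 at 1305 ± 180 against 408 ± 117 CPM (1.71 ± 0.08). Kcnd2, which carries the A-type current, was lower, at 1152 ± 273 against 1887 ± 721 CPM (-0.65 ± 0.09), with Kcnd3 and the calcium channel Cacna1c.

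Receptors for GABA and glutamate moved in unlike proportions. Of 14 GABA receptor genes 8 were higher and 5 lower, with Gabrg3 at 3753 ± 587 against 951 ± 260 CPM (2.01 ± 0.09) and Gabrd, the δ subunit of extrasynaptic receptors, at 49.6 ± 14.2 against 6.53 ± 5.73 CPM (2.83 ± 0.18). Gabra2 was lower in 16 of 16 libraries (-1.02 ± 0.06). Of 19 glutamate receptor genes 11 were lower and 1 higher. Grin3a was at 210.5 ± 81.3 against 835 ± 149 CPM (-2.03 ± 0.09). Cacng2, an auxiliary subunit of AMPA receptors, was the 1 that was higher.

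Of 19 genes for synapse adhesion and neuregulin signalling 9 were higher and 6 lower. Erbb4 was at 12596 ± 1692 against 2799 ± 980.0 CPM (2.25 ± 0.10, adjusted p = 6.31e-17) and Cntnap4 at 1249 ± 168 against 434 ± 149 CPM (1.57 ± 0.09). Nrxn3, a presynaptic neurexin, was lower at 8194 ± 1804 against 14621 ± 3009 CPM (-0.84 ± 0.05). Among genes for GABA release and uptake the vesicle protein Synpr was lower, at 240.3 ± 116 against 1360.0 ± 288 CPM (-2.60 ± 0.12). Matrix genes of the perineuronal net were 4 higher and 2 lower of 6, with Hapln1 at 61.1 ± 24.6 against 7.17 ± 6.18 CPM (3.12 ± 0.18), Vcan at 73.4 ± 30.2 against 9.26 ± 8.15 CPM (2.90 ± 0.16) and Bcan, brevican, at 51.1 ± 11.7 against 18.6 ± 6.25 CPM (1.42 ± 0.12). Hapln1 and Vcan were genes of the ivy/neurogliaform-like class, and Bcan was at 69.4 ± 19.2 CPM in basket-like and 5.202 ± 4.53 CPM in ivy/neurogliaform-like nuclei, so the net genes did not all come from 1 class. Among 9 tested transcription factors of the lineage Mef2c was higher, at 1118 ± 98.9 against 439 ± 67.6 CPM (1.35 ± 0.06), and Satb1 lower, at 234 ± 33.9 against 381 ± 69.0 CPM (-0.70 ± 0.06), with 3 called in each direction.

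Of the genes with at least 20 CPM that were higher in 16 of 16 libraries, the 10 with the largest difference were Pde11a, Frem1, Mctp2, Unc5b, Lamp5, Sntb1, Adamtsl5, Cacna2d1, Syt2 and Egfr. Pde11a, a cyclic nucleotide phosphodiesterase, was at 311 ± 85.6 against 6.85 ± 9.51 CPM (5.44 ± 0.20, adjusted p = 6.92e-18). Cacna2d1, the calcium channel subunit that gabapentin binds, was at 648 ± 176 against 38.0 ± 30.8 CPM (4.16 ± 0.18), and Egfr at 84.5 ± 32.6 against 5.10 ± 3.90 CPM (3.89 ± 0.20). The 10 genes that were lowest relative to somatostatin interneurons were Lama4, Stac, Gm5087, Gm28175, Serpine2, Npas1, Plpp4, Unc13c, Synpr and Gm49678. Lama4, a laminin chain, was at 7.51 ± 5.91 against 71.0 ± 23.8 CPM (-3.15 ± 0.22) and Npas1, a transcription factor, at 7.99 ± 5.11 against 57.04 ± 14.3 CPM (-2.71 ± 0.21). Neuropeptides split, with Npy at 21.3 ± 9.46 against 85.2 ± 44.2 CPM (-2.002 ± 0.16) and Tac1 at 27.5 ± 15.6 against 11.7 ± 14.5 CPM (1.34 ± 0.35, adjusted p = 0.00300).

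Set against 2845 Adarb2 interneurons of the same libraries, with 2 or more UMIs of Adarb2 and 0 of Lhx6, 46.2% of 10234 genes were called, 2370 higher (23.2%) and 2363 lower (23.1%) in the chosen nuclei, and 7.43% were higher and 7.86% lower in 16 of 16 libraries. Adarb2 marks cells of the caudal ganglionic eminence, which include the CCK, VIP and most neurogliaform types. The set was chosen by UMIs alone, however, and the origin of its nuclei was not tested. Nuclei of the medial lineage whose Lhx6 was missed could be in it, since 858 chosen nuclei had just 1 UMI of Lhx6. The chosen ivy/neurogliaform-like nuclei held Adarb2 too. Because the 2 sets were chosen by Lhx6 and Adarb2, and only the chosen nuclei had to lack Vip, genes of the 2 lineages had to differ. The values describe by how much. Of 11 tested transcription factors 6 were higher, among them Sox6 at 565 ± 150 against 39.7 ± 30.6 CPM (log2 difference 3.96 ± 0.16 SE, edgeR adjusted p = 6.44e-17), Satb1 at 231 ± 41.1 against 41.6 ± 15.6 CPM (2.50 ± 0.09), Mef2c (1.37 ± 0.05) and Maf (0.62 ± 0.06). Dlx1 and Dlx6 were lower. The caudal markers outside the rules were 4 of 4 lower, and Cnr1, the cannabinoid receptor of CCK cells, was at 21.6 ± 10.2 against 535 ± 120.5 CPM (-4.63 ± 0.12, adjusted p = 2.5e-20).

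Of 20 channels of fast-spiking cells 15 were higher and 5 lower, with a median of 0.90 against -0.01 over all genes. Kcnc2 was at 3129 ± 729.6 against 1054 ± 218 CPM (1.56 ± 0.08), Kcns3, a modulatory subunit, at 149 ± 26.2 against 43.8 ± 15.3 CPM (1.798 ± 0.09) and Cacna1a, the P/Q-type calcium channel, at 1117 ± 145 against 545 ± 64.8 CPM (1.03 ± 0.04). Kcnd2 was lower here too (-0.67 ± 0.06). Of 14 GABA receptor genes 8 were higher and 6 lower, and Gabra5, which was higher than in somatostatin interneurons (1.32 ± 0.14), was lower than in Adarb2 interneurons (-0.68 ± 0.10). Gabrd was at 48.4 ± 12.7 against 15.3 ± 5.82 CPM (1.65 ± 0.12) and Gabra2 at 108 ± 32.7 against 369 ± 82.6 CPM (-1.79 ± 0.07). Glutamate receptor genes were 8 higher and 9 lower of 19, with Gria1 at 4379.6 ± 1502 against 2043 ± 810.1 CPM (1.123 ± 0.05). Of the 19 adhesion genes 6 were higher and 10 lower, with Nxph2 at 41.8 ± 13.1 against 2.30 ± 2.61 CPM (3.97 ± 0.23).

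The largest positive differences by the same rule were in Mypn, Crhbp, Adamtsl5, 9630002D21Rik, Moxd1, Nxph2, Sox6, Gm28501, Pvalb and Tmem44. Crhbp, the corticotropin-releasing hormone binding protein, was at 34.5 ± 11.3 against 1.61 ± 1.97 CPM (4.38 ± 0.25). Of 7 tested genes of the perineuronal net 4 were higher, Acan (3.15 ± 0.31), Bcan (1.84 ± 0.12), Hapln1 and Tnr, and 2 lower, Ncan and Ptprz1. The δ-opioid receptor Oprd1, at 110.1 ± 25.8 against 27.9 ± 12.9 CPM (2.03 ± 0.09), was higher as well. The largest negative differences were in Tac2, Cxcl14, Syt6, Ndnf, Gm39185, Otx2os1, Cnr1, Cadps2, Trp53i11 and Kit. Of the 6 listed ivy and neurogliaform markers 1, Nos1, was higher and 3, Sv2c, Ndnf and Kit, were lower. Cxcl14, a chemokine, was at 0.741 ± 0.913 against 30.8 ± 15.6 CPM (-5.36 ± 0.20), Ndnf, a neurogliaform marker of the caudal lineage, at 2.92 ± 2.05 against 88.9 ± 32.0 CPM (-4.85 ± 0.15) and Kit, a receptor tyrosine kinase, at 5.92 ± 3.71 against 118 ± 48.7 CPM (-4.28 ± 0.11). Of 6 immediate early genes tested 0 were higher and 5 lower, Junb, Egr1, Nr4a1, Nr4a3 and Bdnf, of which 3 were called in all 16 fits that left out 1 library. Over all genes 4053 of the 4733 calls here and 2202 of the 2685 against somatostatin interneurons were made in all 16 such fits.

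**Figure D3:**
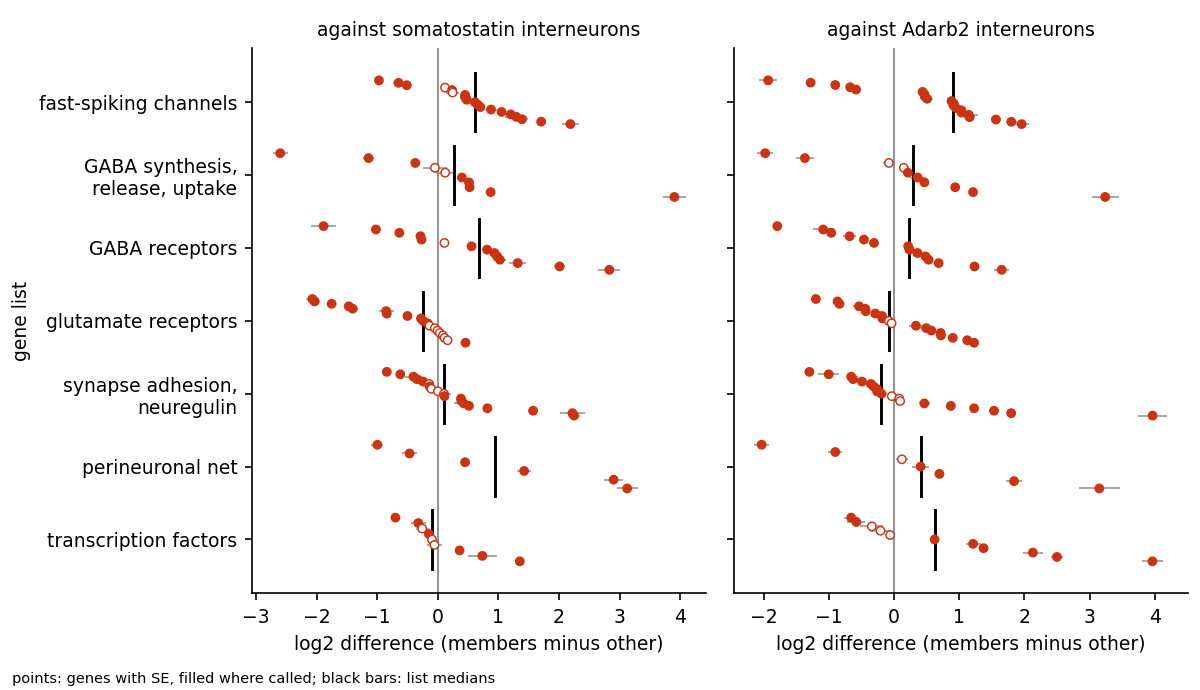
Log2 difference between the chosen nuclei and somatostatin interneurons (left) or Adarb2 interneurons (right) for each tested gene of 7 lists, with its SE, filled where called, and black bars at list medians. Fast-spiking channels lie mostly to the right of 0 in both panels, with medians of 0.61 and 0.90, and glutamate receptors have medians of -0.24 and -0.08.

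No gene passed the test after DMXAA. In WT mice 0 of 10239 genes were called (0% of those tested), and 392 genes were under 0.05 by edgeR before adjustment, and DESeq2 called 0. Without WT DMXAA 3 the count stayed at 0, with 807 genes under 0.05 before adjustment. In KO mice 0 genes were called (0%), 619 were under 0.05 before adjustment, and DESeq2 called 0. The direct test of whether the DMXAA effect differed between genotypes called 0 genes (0%), with 612 under 0.05 before adjustment, while DESeq2 called 1, Zfhx3. Without WT DMXAA 3 edgeR called 2 genes for this difference, Zfhx3 higher and A330008L17Rik lower. Without the filter on low counts edgeR called 20, 104 and 44 genes in these 3 contrasts, Ryr3 and Zfhx3 among them in WT and Rorb in KO. On simulated counts with the same library totals the test found 52.0% of 98 genes changed by a log2 change of 1. It found 89.8% of 98 genes changed by a log2 change of 2. Changes of 2-fold or less would thus often be missed. Both shares hold with this many genes changed at once, since the adjustment of p depends on how many genes change. Recovery at either size with fewer changed genes was not tested.

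Most interferon-stimulated genes were too scarce to test in these nuclei. Of 92 listed genes 90 were in the files and 6 passed the filter on low counts, 12 had 0 UMIs in all 16 libraries and 64 had fewer than 16 UMIs over all libraries together. The summed level of all 90 was 237 to 291 CPM in WT vehicle, 384 and 293 CPM in WT DMXAA 1 and 2, and 268 and 274 CPM, inside the vehicle range, in WT DMXAA 3 and 4. It was 234 to 257 CPM in KO vehicle and 235 to 284 CPM in KO DMXAA. The summed level without Adar, an RNA-editing enzyme that alone stood at 76.4 to 183 normalised CPM, was 128 to 152 CPM in WT vehicle. It was 289, 213 and 173 CPM in WT DMXAA 1, 2 and 4, above every WT vehicle library, and 123 CPM in WT DMXAA 3, below every one. In KO it was 89.5 to 102 CPM with vehicle and 75.1 to 125 CPM with DMXAA. The median log2 change over the 6 tested genes was 0.18 in WT and 0.02 in KO, beside 0.02 and 0.01 over all genes, and 0.22 in WT over 7 genes without WT DMXAA 3. The WT median was unstable, at 0.06 without WT DMXAA 1, 0.39 without WT DMXAA 4, 0.32, 0.48, 0.32 and -0.00 without WT vehicle 1, 2, 3 and 4, and 0.78 without the filter on low counts.

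Excitatory nuclei of the same libraries held more of these transcripts than the chosen nuclei after DMXAA in WT. The sets were filtered unlike, since only the chosen nuclei had to lack Mog, Pdgfra, Csf1r and Vip. Csf1r had a UMI in 1.96% of the excitatory nuclei, so the sums do not compare cell types alone. In excitatory nuclei the sum without Adar was 153 to 176 CPM in WT vehicle. WT DMXAA 3 was at 215 CPM and the other WT DMXAA libraries at 317 to 710 CPM. KO vehicle was at 86.6 to 112 CPM and KO DMXAA at 102 to 134 CPM, all below WT DMXAA 3. Microglial transcripts in the chosen nuclei stood in part in the same order of libraries. The summed level of 4 microglial markers was 90.6, 91.3 and 78.96 CPM in WT DMXAA 1, 2 and 4 and 25.7 CPM in WT DMXAA 3, against 45.9 to 79.1 CPM in WT vehicle, and the part of RNA from other cells in the interferon sums was not tested.

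**Figure D4:**
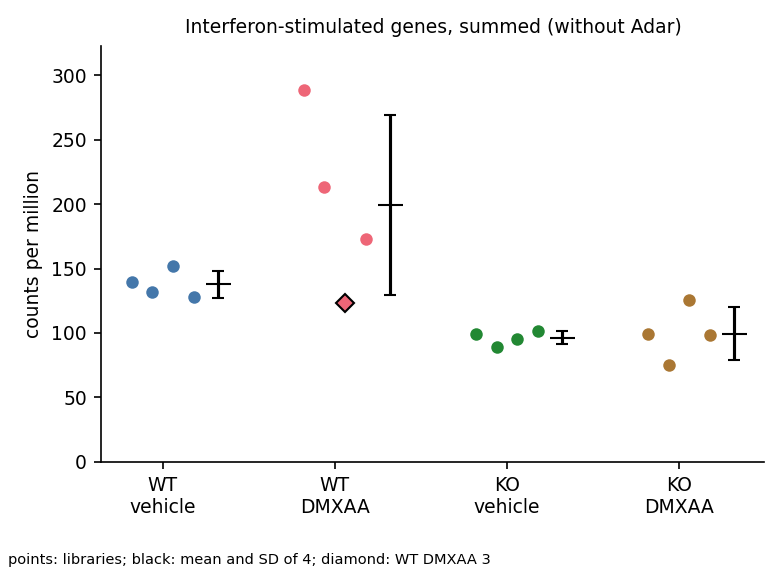
Plain summed level of the listed interferon-stimulated genes other than Adar, in CPM, for each library (points), by group, with mean and SD of 4 in black and WT DMXAA 3 as a diamond. Without Adar, WT DMXAA 1, 2 and 4 lie above all WT vehicle libraries, WT DMXAA 3 does not, and KO groups overlap.

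None of the lists for receptors, channels, adhesion, transcription factors, peptides or clock genes had a called gene after DMXAA in either genotype. Median log2 changes of glutamate receptor genes were 0.19 in WT (16 of 19 above 0) and -0.11 in KO (3 of 19 above 0), and those of 121 MEF2C targets 0.10 and -0.13. The targets were taken from the study's comparison of tau transgenic mice with and without Cgas, in inhibitory neurons. They pool targets that the study found raised by Cgas deletion with targets it found lowered, such as Eph receptor genes. Their median thus gives no direction of the MEF2C network. The 5 genes of a MEF2C network, which the study named in excitatory neurons, had medians of 0.15 and -0.24. Mef2c itself was at 1012 ± 87.2 CPM in WT vehicle, 1069 ± 114 CPM in WT DMXAA, 1103 ± 36.9 CPM in KO vehicle and 1115 ± 139 CPM in KO DMXAA (SD, n = 4). The WT medians rested on WT DMXAA 3. Without it they were -0.07 for glutamate receptor genes (8 of 19 above 0), -0.10 for the MEF2C targets and -0.04 for the network, beside 0.01 over all genes.

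The genes with the smallest p in WT were Ryr3, Zfhx3, Nectin2, Npy and Tfcp2. Ryr3, a calcium release channel of the endoplasmic reticulum (chr2:112631355-113217096), was at 22.7, 24.4, 33.9 and 39.4 CPM in WT vehicle and 52.1, 59.1, 68.3 and 118 CPM in WT DMXAA, the last in WT DMXAA 3. The groups did not overlap, as for 0.986% of genes higher and 0.85% lower in WT DMXAA, and the log2 change was 1.32 ± 0.28 (edgeR adjusted p = 0.9999). It was 0.98 without WT DMXAA 3 and 0.60 without the doublet-rich cluster. Npy, a peptide of ivy and somatostatin cells (chr6:49822710-49829507), was at 25.3 to 38.3 CPM in WT vehicle and 14.5 to 23.5 CPM in WT DMXAA (-0.88 ± 0.23, adjusted p = 0.9999, -0.82 without WT DMXAA 3), and at 9.33 to 16.8 CPM in KO vehicle and 14.0 to 22.4 CPM in KO DMXAA. The difference of the 2 effects on Npy was -1.47 ± 0.33 (adjusted p = 0.403). In KO the smallest p belonged to Rorb, 2010300C02Rik, 4930452B06Rik, Trhde and Fbn1. Rorb, a nuclear receptor, was at 21.5 to 32.0 CPM in KO vehicle and 6.39 to 11.8 CPM in KO DMXAA (-1.62 ± 0.34, adjusted p = 0.766), without overlap, as for 3.32% of genes higher and 2.63% lower in KO DMXAA. Trhde, an enzyme that degrades thyrotropin-releasing hormone, was at 266 to 423 CPM and 128 to 214 CPM (-0.98 ± 0.23, adjusted p = 0.781).

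For the difference between genotypes the smallest p belonged to Zfhx3, Vav3, Atf1, Npy and Rorb. Zfhx3, a homeobox transcription factor (chr8), was at 0, 0, 1.58 and 3.75 CPM in WT vehicle, 3.51 CPM in WT DMXAA 3 and 13.8, 15.8 and 46.7 CPM in the other WT DMXAA libraries. It was at 4.87 to 23.6 CPM in KO vehicle and 1.57 to 6.38 CPM in KO DMXAA. The interaction was 5.47 ± 1.13 (edgeR adjusted p = 0.403), 5.87 without WT DMXAA 3 (adjusted p = 0.0139). Zfhx3 and Rorb were among the leading genes of the doublet-rich cluster, and without that cluster neither passed the filter on low counts. Atf1, a CREB family factor, was at 27.2 to 39.8 CPM in WT vehicle and 42.1 to 46.3 CPM in WT DMXAA, and at 37.5 to 45.9 CPM in KO vehicle and 29.3 to 32.6 CPM in KO DMXAA, with an interaction of 0.91 ± 0.20 (adjusted p = 0.403) that stood at 0.91 without the doublet-rich cluster.

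Whether DMXAA in WT mice acted otherwise on these nuclei than on somatostatin interneurons was tested in the paired fit. Of 8344 genes 0.012% were called, which was 1 gene, 4930509J09Rik, a transcript of unknown function with a difference of 1.61 ± 0.26 (edgeR adjusted p = 0.0171), and 360 genes were under 0.05 before adjustment. Without WT DMXAA 3 the count was 1 as well. The chosen nuclei held 7 to 30 UMIs of it per WT vehicle library. The call was lost without WT vehicle 1, 2 or 4 or WT DMXAA 2 or 4, with an adjusted p of up to 0.279 in the last case, and at Sst 0 only (0.0549).

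KO vehicle differed from WT vehicle in 25.1% of 10239 genes, 1200 higher (11.7%) and 1368 lower (13.4%), and 15% of genes were higher and 15.8% lower without overlap of the libraries. The contrast holds genotype and age together. Leaving out 1 library gave 1391 to 3519 calls, the fewest without KO vehicle 2 and the most without WT DMXAA 3, with 1643 and 1656 without KO vehicle 1 and WT vehicle 3. Of the 2568 calls 1100 were made in all 16 such fits, and 1492 were made again when each library was thinned to the total of the smallest. Genes named with values below were called in all 16 unless stated.

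Both marker genes of the label that the rule did not use, Nxph1 and Btbd11, rose in KO vehicle. Nxph1 (chr6:8948431-9249032) was at 2424, 2476, 2582 and 2833 CPM in WT vehicle and 3558, 3982, 4795 and 4979.9 CPM in KO vehicle, with no overlap (log2 difference 0.74 ± 0.17, edgeR adjusted p = 0.0072). Btbd11 (chr10) was at 402, 551, 554 and 582 CPM and at 931, 1016, 1036 and 1039 CPM (0.93 ± 0.16, adjusted p = 0.00359). Within parvalbumin basket-like nuclei alone Nxph1 differed by 0.86 and Btbd11 by 0.94, and within ivy/neurogliaform-like nuclei by 0.76 and 0.94, where the call on Btbd11 was lost (adjusted p = 0.133). Mef2c did not pass the test (0.12 ± 0.12, adjusted p = 0.489). The summed level of the 5 parvalbumin basket markers, by contrast, was 496 to 694 CPM in WT vehicle and 375 to 440 CPM in KO vehicle, with no overlap. Of the 4 tested 0 were called, and their median log2 difference was -0.45, beside -0.03 over all genes.

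Genes of synapses and receptors were more often higher than lower, beside 11.7% higher and 13.4% lower over all genes tested. Genes higher in KO vehicle had longer loci in general, as given below. The part of gene length in the counts of these lists was not tested. Of 19 glutamate receptor genes 10 were higher and 1, Gria2, lower, with a median of 0.56 against -0.03 over all genes tested, and 4 of these 11 calls were made in all 16 fits leaving out a library. Of 14 GABA receptor genes 6 were higher and 0 lower, with Gabrb1 at 270.4 to 425 CPM in WT vehicle and 601 to 720.4 CPM in KO vehicle (0.89 ± 0.16, adjusted p = 0.00407) and Gabbr2, the metabotropic subunit, higher by 0.63 ± 0.13. Of 19 adhesion and neuregulin genes 11 were higher and 1 lower. Fast-spiking channels were 6 higher and 2 lower of 19, with Kcnc2 higher by 0.62 ± 0.16. Calls made in all 16 fits numbered 2 of 6 for GABA receptors, 5 of 12 for adhesion and 5 of 8 for channels. Of 121 MEF2C targets 49 were higher and 1 lower, with a median of 0.48, and 30 of these 50 calls held in all 16 fits. Targets raised and targets lowered by Cgas deletion were pooled in that list, so this is no direction of the network. Among the 5 genes of the MEF2C network 3 were higher, Rgs6, Dpp10 and Pdzrn3. Dpp10, an auxiliary subunit of A-type channels, differed by 0.69 ± 0.19, and the calls on the other 2 were lost when 1 library was left out.

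Of 12 tested transcription factors of the lineage 3 were higher, Satb1, Maf and Zeb2, and 3 lower, Dlx1, Dlx2 and Dlx6, and of 9 genes for peptides and their receptors 0 were higher and 2 lower, Npy and Cck, beside 11.7% and 13.4% over all genes. Calls made in all 16 fits were Dlx1 and Satb1 among the factors and Npy among the peptides. Dlx1, a homeobox factor of interneuron development, fell (-1.14 ± 0.23, adjusted p = 0.00469), and Npy fell from 25.3 to 38.3 CPM to 9.33 to 16.8 CPM (-1.41 ± 0.23, adjusted p = 0.00292), with -0.99 in ivy/neurogliaform-like nuclei alone (adjusted p = 0.0821). Satb1 was higher (0.43 ± 0.12) and so was Synpr (1.26 ± 0.33), whose call was lost without the doublet-rich cluster (adjusted p = 0.0567). Both genes were higher in somatostatin interneurons than in the chosen nuclei, and somatostatin-like nuclei were 4.82 ± 2.94% of WT vehicle and 10.7 ± 3.19% of KO vehicle (SD, n = 4). Without the somatostatin-like clusters the differences were 0.43 for Satb1 and 1.58 for Synpr (edgeR adjusted p = 0.0127 and 0.00612). The summed level of the 4 somatostatin markers outside the rule was 190 to 299 CPM in WT vehicle and 258 to 500 CPM in KO vehicle. Of these markers 3 were called, and Npy alone in all 16 fits. Among interferon pathway genes Irf3 was lower (-1.70 ± 0.45, adjusted p = 0.0127). Adar was higher (0.54 ± 0.17, adjusted p = 0.0268), a call lost without any 1 of WT vehicle 1, 2 and 4 and KO vehicle 1 and 2, with an adjusted p of up to 0.0724 without KO vehicle 2.

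Malat1, an abundant nuclear noncoding RNA, was lower. It was at 42754 to 66776 CPM in WT vehicle, 26374 CPM in WT DMXAA 3, 52341 to 71536 CPM in the other WT DMXAA libraries and 14001 to 24871 CPM in KO vehicle (-1.39 ± 0.27, adjusted p = 0.00439). Of 9 listed nuclear noncoding and splicing genes 4 were lower, the noncoding Malat1 and Snhg11 and the protein-coding Son and Ddx5, and 0 higher, and 3 of the 9 lay above 0. Of the 1200 genes higher in KO vehicle 4.08% were long noncoding RNAs and the median length of their loci was 164 kb, while of the 1368 lower genes 22.2% were noncoding and the median was 10.5 kb, beside 8.57% and 34.3 kb over all genes tested (GENCODE annotation of mm10). The summed level of 4 microglial markers moved with the genotype too, from 45.9 to 79.1 CPM in WT vehicle to 21.1 to 28.1 CPM in KO vehicle, and its part in these differences was not tested.

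Zfhx3, Stk32b, Taco1 and Trpm3 were among the genes with the largest rises whose libraries did not overlap. Taco1, a translational activator of mitochondrial cytochrome oxidase, was at 10.4 to 16.9 CPM in WT vehicle and 61.9 to 138 CPM in KO vehicle (2.71 ± 0.41, adjusted p = 0.00277), with like differences in parvalbumin basket-like (2.64) and ivy/neurogliaform-like nuclei (2.13). Trpm3, a cation channel, was at 38.6 to 69.4 and 195 to 388 CPM (2.53 ± 0.37), 1.82 without the doublet-rich cluster and 0.66 in parvalbumin basket-like nuclei alone (adjusted p = 0.337). The call on Zfhx3 (2.99 ± 0.91) was lost without WT vehicle 2, 3 or 4 or KO vehicle 4 (adjusted p up to 0.065). The largest falls were in Gm49708, Gm29237, Gm15965, Fam43a and Gm15655, 4 of them predicted genes. Gm15965 was at 11.3 to 21.3 CPM in WT vehicle and 1.10 to 3.36 CPM in KO vehicle (-3.09 ± 0.51, adjusted p = 0.00292), and WT DMXAA 3 had 5.86 CPM against 20.2 to 33.9 CPM in the other WT DMXAA libraries.

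**Figure D5:**
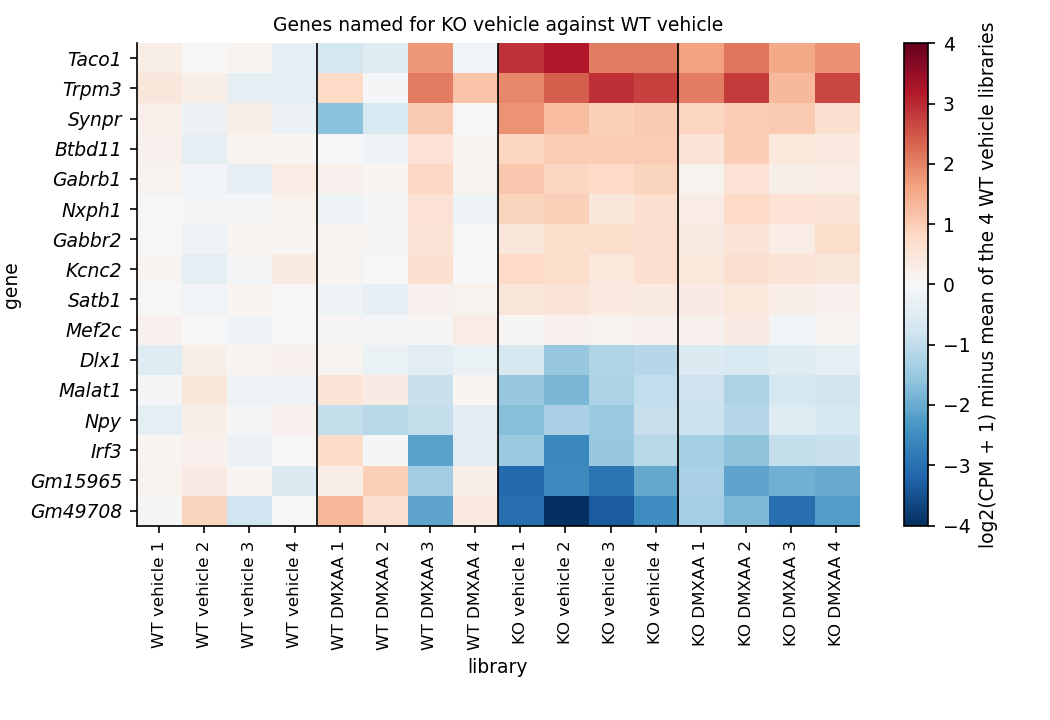
Difference of log2(CPM + 1) from the mean of the 4 WT vehicle libraries (colour) for 16 genes (rows) in each library (columns), with lines between groups. The KO vehicle columns are red for Taco1 to Satb1 and blue for Dlx1 to Gm49708, Mef2c is near 0 throughout, and WT DMXAA 3 is red for Taco1 and Trpm3 and blue for Irf3, Gm15965 and Gm49708.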

How the data were processed

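The authors deposited, for each of 16 libraries, a filtered matrix of raw counts (UMIs per gene and barcode, not normalised). Per the submitters' notes the reads were processed with Cell Ranger 3.1.0 and Seurat 3.0 on mm10, the matrix headers name Cell Ranger 6.1.2, and per the study's methods reads on pre-mRNA were counted. The study kept nuclei with 200 to 4000 genes, removed doublets and tested single nuclei. Here nuclei were chosen by fixed UMI limits, doublet calls (scanpy 1.11.5) were kept and left out as an alternative, and the library was the replicate. Libraries held 66059561 to 93228638 UMIs in all, and 665693 to 1993062 in the chosen nuclei.

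Counts were summed per library and tested with edgeR 4.0.16 (quasi-likelihood test, TMM factors, filterByExpr) in R 4.3.3, with the 4 groups in 1 fit. Comparisons with other interneurons of the same library had the library as a block, since both sums came from the same nuclei suspension. A gene was called at a Benjamini-Hochberg adjusted p under 0.05 and a log2 change over 0.1 in size. Shares were set against each other with an exact permutation test (two-sided). Clusters were formed on 2000 variable genes and 20 components at resolution 0.5, and the rule that names them from marker lists was set after the clusters were seen. The steps were tested on simulated data.

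The members and the lists were chosen with earlier results of these data known. Genes were named as follows: for the interneuron comparisons the 10 with the largest difference in each direction among called genes with at least 20 CPM in the higher set that went one way in 16 of 16 libraries, for DMXAA the 5 with the smallest p where none was called, for the genotypes the 5 largest in each direction whose libraries did not overlap, and members of the lists. Other list members given as examples were chosen after their values were seen, and some genes that the rules name are not reported here. Alternatives were DESeq2 1.42.0, other size factors, no filter on low counts, other limits on genes, Sst and Lhx6, no doublet calls, other clusterings and each library left out. Single classes, no doublet-rich cluster, no somatostatin-like clusters and thinned libraries were added after seeing the data. Gene positions are from GENCODE M21 (mm10). Intervals cover counting error only.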

Additional observations from a re-analysis of the deposited data

Results flagged for a closer look

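In groups of 4 libraries, 64 values of 16 quantities were looked at for a library whose gap to its nearest neighbour was large beside the range of its group, and 3 were found. Chance gives about 1 in 20. WT vehicle 2 had the lowest share of chosen nuclei, 0.755%, against 0.928% to 0.962% in the other WT vehicle libraries. KO vehicle 2 had 15.5% somatostatin-like nuclei, against 8.82% to 9.35% in the other KO vehicle libraries. WT DMXAA 3 had Nxph1 at 3807 CPM, against 2259 to 2494 CPM in its group, within the range of KO libraries.

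In the main clustering the share of the doublet-rich cluster was higher after DMXAA in WT and lower after DMXAA in KO. It was 3.33% to 6.45% of the chosen nuclei in WT vehicle, 6.98% to 13.6% in WT DMXAA, 10.7% to 12.2% in KO vehicle and 6.82% to 9.82% in KO DMXAA. The WT effect minus the KO effect was 7.68 points (exact permutation within genotypes, p = 0.000408, the smallest it can give, adjusted over 11 clusters 0.00449). Labels were swapped within each genotype, so p tests no effect in either genotype and not equal effects in both. WT DMXAA 3 had the highest share of its group. Without it the WT DMXAA range was 6.98% to 9.59% and the difference 6.27 points (exact permutation p = 0.000816, the smallest it can give). Without the doublet calls it was 6.69 points (exact permutation p = 0.0167, not adjusted over the 11 clusters). In 3 other clusterings the cluster with the most doublet calls held only 25 to 26 of these 129 nuclei. It had 364, 30 and 26 nuclei in all, so it was not the same cluster. The difference was -3.87, 2.28 and 1.38 points there (exact permutation p = 0.566, 0.192 and 0.402). Transcripts that differed between the genotypes were among the genes used for the clustering. The part that doublets had in it was not tested further.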

How the results depend on the processing

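Without the filter on low counts the calls were 20 for DMXAA in WT, 104 in KO, 44 for their difference and 22 for the contrast with somatostatin interneurons. DESeq2 called 1 gene for the difference between genotypes. Leaving out 1 library gave 0 to 2 calls there (2 without WT DMXAA 3), 0 in each single DMXAA contrast, and 0 to 2 in the contrast with somatostatin interneurons, where nuclei with 0 UMIs of Sst gave 0. Between the vehicle groups 2568 calls became 1252 with 200 to 4000 genes, 571 with 2 or more UMIs of Lhx6, 1266 in parvalbumin basket-like and 170 in ivy/neurogliaform-like nuclei alone, 1595 in thinned libraries and 1391 to 3519 when a library was left out. Fewer nuclei, counts or libraries entered each of these fits. The median of the interferon list in WT was 0.78 without the filter on low counts and -0.00 to 0.48 leaving out a library, and in KO 0.30 with 200 to 4000 genes and 0.32 in parvalbumin basket-like nuclei. The share difference in WT was 0.0762 to 0.200 points leaving out a library, the highest without WT DMXAA 2. The adjusted exact permutation p of 0.0429 there rested on the p of KO vehicle against WT vehicle. In KO the share difference was -0.165 to 0.0532 points, 0.06002 after thinning and 0.0114 with 2 or more UMIs of Lhx6. The DMXAA effect on Ryr3 in WT minus that in KO was 1.67 and turned to -0.23 in ivy/neurogliaform-like nuclei. The cause was not tested. Of 2062 values of single genes with a library left out 2036 kept direction and side of the threshold, and of 945 under other alternatives 900 did. No paired analysis of groups was possible because no 2 groups set against each other share a library number in the deposited labels. The library numbers used here are not those numbers. They follow the order of deposit within a group and pair nothing. The fits between interneuron sets had the library as a block. Between 62 and 126 nuclei a library limit scarce transcripts most.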
